A study of Homo sapiens with 12 samples.

Results

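The comparison of lenalidomide (LEN) alone with DMSO covered 6 of the 12 samples of the series: 3 cultures of OPM-1 cells given 0.1 μM LEN for 48 h and 3 given the solvent DMSO for the same time. OPM-1 is an established multiple myeloma line, so every value here comes from a single cell line of plasma cell origin. The other 6 samples received AI-10-104, which blocks RUNX proteins, at 1 μM alone (3 samples) or together with LEN at the same dose (3 samples), and their poly(A) RNA was sequenced in the same way. They are used here as a second measurement of what LEN does. They share no sample with LEN and DMSO, but 1 fit gave both comparisons the same spread for each gene. Genes entered the tests where their mean over the 12 samples reached 0.5 RPKM (reads per kilobase of gene, scaled to the same total of reads in each sample), which left 11241 genes.

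LEN is an immunomodulatory imide drug. It binds cereblon (CRBN), the substrate receptor of a cullin-RING ubiquitin ligase, and directs the ligase to the zinc finger transcription factors IKZF1 and IKZF3, which are then destroyed by the proteasome. IKZF1 and IKZF3 sustain the transcriptional program of plasma cells and hold some immune genes silent. The loss occurs at the protein level, and the data below are of RNA.

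The libraries carried the RNA of plasma cells. JCHAIN, the joining chain of polymeric antibodies, stood at 3318 ± 154 RPKM in DMSO and 3218 ± 101 RPKM in LEN (SD, n = 3 each). Of the 11 plasma cell markers 10 were tested and none was called, near the 0.649% of all genes called. FCRL5, with at most 9 reads in any of the 6 samples, was not tested. The 17 T and NK cell markers summed to between 0.438 and 0.631 RPKM in DMSO samples and between 0.399 and 0.580 RPKM in LEN samples, and the 14 myeloid markers to between 0.123 and 0.491 RPKM and between 0.0783 and 0.202 RPKM. The 17 stromal, epithelial and erythroid markers summed to more, between 20.58 and 21.22 RPKM in DMSO and between 20.85 and 22.37 RPKM in LEN. Of these 17, 15 had at most 3 reads in any of the 6 samples. Reads counted on genes ranged from 19442512 to 31386210 over the 6 samples, and LEN replicate 1 was the shallowest.

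At the thresholds used, LEN at this dose gave few calls, mostly upward and of small size. Of the genes tested, 66 rose and 7 fell at an adjusted p of at most 0.05 and a log2 fold change of at least 0.32 in either direction (limma, Benjamini-Hochberg adjustment), which is 0.587% and 0.0623% of them. Without the condition on fold, 110 genes were higher and 17 lower. At an unadjusted p under 0.05 in the same limma fit, 739 genes were higher and 467 lower, together 10.7% of those tested. The rises ran from 0.32 to 1.02 on the log2 scale with a median of 0.43, 18 of the 66 reached 1.5-fold and 2 reached a log2 fold change of 1. The median over all genes tested was 0.00 and their median absolute log2 fold change 0.05. The genes that rose had a median of 4.78 RPKM in DMSO against 8.50 RPKM for all genes tested, and they lay on 20 chromosomes.

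All 3 LEN samples lay above all 3 DMSO samples for each of the 66 genes that rose, a separation that 9.42% of all genes tested showed, and below them for each of the 7 that fell (7.03% of all genes). The genes were called on these same 6 samples, so their separation, here and for single genes below, is a description and no further support. The number called varied with the libraries used. Leaving out LEN replicate 1 left 33 genes up, leaving out LEN replicate 3 left 39, and omitting any other of the 6 libraries left between 44 and 61. Of the 66 genes, 26 were called in each of the 6 omissions and 19 lost their call in 5 or more of them, namely CASP1, SQRDL, JAK3, SH2D2A, CCR1, S1PR2, RAPGEF3, JUP, IQGAP3, ELF3, TPST2, ATP10D, CADPS2 and SNORA65 in 5, and CCDC88A, MVP, GAS6, AUTS2 and LHFP in all 6. None of the 73 called genes turned direction under any setting tried. The number that fell dropped to 2 without DMSO replicate 2, LEN replicate 1 or LEN replicate 3, and to 4 without DMSO replicate 3 or LEN replicate 2.

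**Figure D1:**
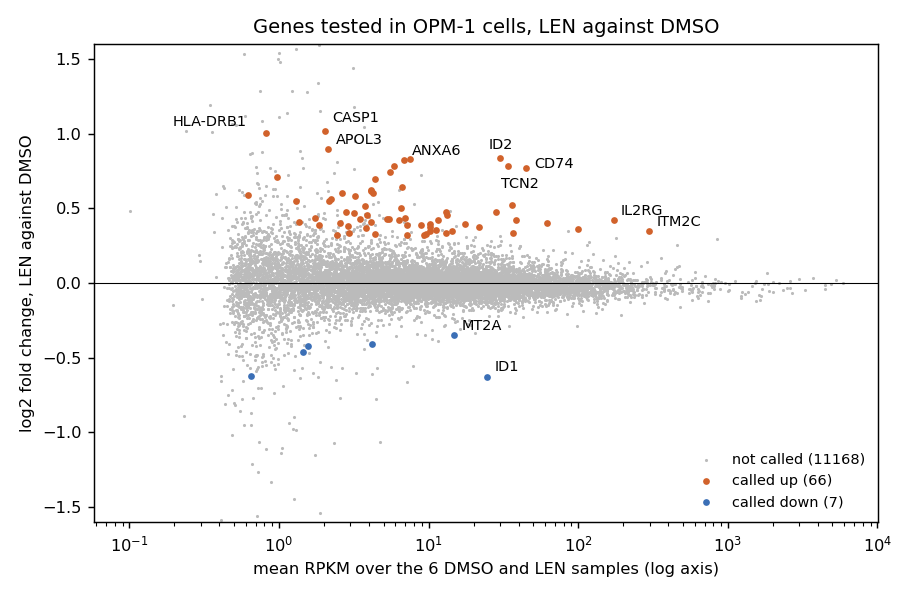
Each point is 1 of the 11241 genes tested: the x axis is its mean RPKM over the 6 DMSO and LEN samples (log axis) and the y axis its log2 fold change, LEN against DMSO, on log2(RPKM + 0.1). The 66 genes called up (orange) and 7 called down (blue) stand among the genes that were not called, and 29 genes, small RNA genes with few reads such as SNORD98, lie outside the plotted range.

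The 66 genes were grouped by role after their values were seen, so the groups are a description and carry no test. Innate immune sensing and defence held 12, membranes, vesicles and cell surface 9, cytoskeleton, junctions and calcium 8, cytokine and lymphocyte receptor signalling 7, G protein, cAMP and ion channel signalling 7, enzymes, carriers and chaperones 7, transcription and BMP 5, and antigen presentation 3. The remaining 8 had no role assigned. Of the 66, 20 belonged to any of the 34 gene lists chosen for these cells and this drug, and 46 belonged to none. Those lists held 924 of the 11241 genes tested.

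**Figure D2:**
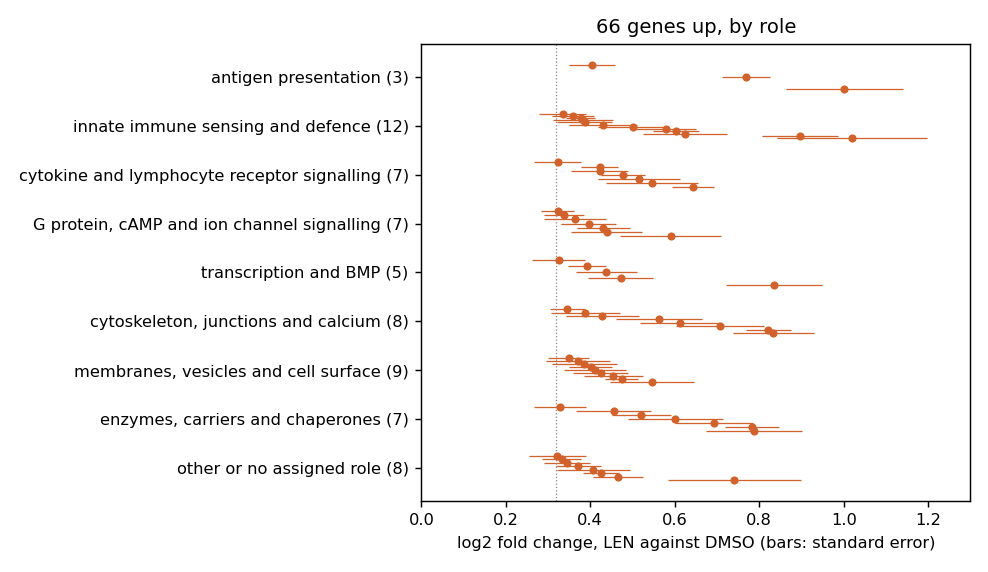
Each point is 1 of the 66 genes that rose, placed by role (rows, with the number of genes in brackets) and by log2 fold change, LEN against DMSO (x axis), with bars of 1 standard error. The dotted line marks the threshold of 0.32, and the highest medians were those of antigen presentation (0.77, 3 genes) and of enzymes, carriers and chaperones (0.60, 7 genes).

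The promoters of some of the genes that rose are shown first, because interferon-regulated genes are known for short promoter elements. RefSeq promoter windows on GRCh38.p14, from 250 bases before to 50 bases after each start, were matched for 45 of the 66 genes up and 5 of the 7 genes down. The core of the interferon-stimulated element (GAAA, any 2 bases, GAAA) was found on either strand in 2 of the 45 windows (4.44%) and in 3.65% of all 27305 windows. For the gamma-activated site TTCNNNGAA the shares were 6.67% and 7.88%, for the ETS-IRF composite (GGAA, any 2 bases, GAAA) 4.44% and 2.84%, and for the CCAAT box ATTGG, which is part of MHC class II promoters, 44.4% and 35.7%. The first and the third of these patterns can overlap each other. Among the 8474 windows of genes tested, which are the closer background, the 4 shares were 2.47%, 6.15%, 2.40% and 38.3% in the order given. The first 3 shares of the genes up rest on 2 or 3 windows each, and a match is a description of letters, not a bound site.

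The windows of IFIH1, TLR4 and LCP2 are printed 5′ to 3′ on the strand of the gene, as 1 example for each of the first 3 patterns among the genes up. The letters of those matches are in capitals and CCAAT boxes are left in lower case. Other genes up with such matches, not printed, were MVP (interferon-stimulated core), ATP2B4 (ETS-IRF), and LAMP5 and CCR1 (gamma-activated). MT2A, which fell, also holds a gamma-activated match. IFIH1 (chr2:162318635-162318934, minus strand) holds 3 matches to the interferon-stimulated core, of which a pair overlap. TLR4 (chr9:117704153-117704452, plus strand) holds 1 ETS-IRF match starting at position -105 from the start, read on the opposite strand. LCP2 (chr5:170297728-170298027, minus strand) holds 1 gamma-activated match starting at position -47.
IFIH1: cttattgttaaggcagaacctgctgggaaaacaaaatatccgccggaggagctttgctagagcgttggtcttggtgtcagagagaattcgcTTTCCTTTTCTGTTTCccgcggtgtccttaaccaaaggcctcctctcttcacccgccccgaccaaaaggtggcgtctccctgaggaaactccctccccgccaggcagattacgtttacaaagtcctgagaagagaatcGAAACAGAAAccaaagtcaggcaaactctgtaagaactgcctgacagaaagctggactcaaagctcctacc
TLR4: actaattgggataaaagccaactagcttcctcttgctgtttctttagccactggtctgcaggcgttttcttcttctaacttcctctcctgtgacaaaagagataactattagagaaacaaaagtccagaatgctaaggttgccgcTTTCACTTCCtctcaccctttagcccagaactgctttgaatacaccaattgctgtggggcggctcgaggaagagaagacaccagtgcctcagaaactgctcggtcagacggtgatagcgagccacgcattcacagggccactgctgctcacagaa
LCP2: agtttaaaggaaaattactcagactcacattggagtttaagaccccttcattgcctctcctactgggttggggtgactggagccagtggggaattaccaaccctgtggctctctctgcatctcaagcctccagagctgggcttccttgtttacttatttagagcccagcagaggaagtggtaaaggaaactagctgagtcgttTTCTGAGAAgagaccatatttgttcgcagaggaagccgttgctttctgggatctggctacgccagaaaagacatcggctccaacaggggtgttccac

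MHC class II molecules show peptides from the endocytic route to CD4 T cells, and their genes are switched on by the coactivator CIITA. In OPM-1 cells 3 of the 7 tested members of the class II list rose with LEN, beside 0.587% of all genes tested. CD74 (chr5:150401637-150412969, minus strand), the invariant chain that guards the class II groove, measured 34.6, 32.7 and 31.3 RPKM in DMSO replicates 1 to 3 and 57.4, 55.2 and 55.4 RPKM in LEN replicates 1 to 3. The DMSO and LEN ranges did not overlap, and the log2 fold change was 0.77 ± 0.06 (SE, adjusted p = 0.000102). HLA-DRB1 (chr6:32577902-32589848, minus strand), the class II beta chain, measured 0.501, 0.606 and 0.440 RPKM in DMSO and 1.04, 1.15 and 1.19 RPKM in LEN. Its LEN and DMSO samples did not overlap, at a log2 fold change of 1.00 ± 0.14 (adjusted p = 0.00441) on 62 to 231 reads. CIITA itself went from 2.20 ± 0.06 to 2.95 ± 0.05 RPKM, a log2 fold change of 0.40 ± 0.06 (adjusted p = 0.00435).

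The other 4 tested members of the class II list were not called. IFI30, a thiol reductase of endosomes, had 0.30 ± 0.23 (adjusted p = 0.743), and the regulatory factors RFX5, RFXAP and RFXANK had log2 fold changes of 0.02, -0.20 and -0.10. The median of the 7 tested members was 0.30. HLA-DRA, the partner chain of HLA-DRB1, was below the filter and untested, at 0.215 ± 0.022 RPKM in DMSO and 0.372 ± 0.046 RPKM in LEN. HLA-DMA, HLA-DMB, HLA-DOA, HLA-DOB and HLA-DPA1 were listed at 0 in all 6 samples. The gene length deposited for HLA-DRB1 is 6610 bases against 3083 bases of annotated exons, and reads of class II genes can be shared between near-identical copies, so its level is uncertain where its ratio between conditions is less so.

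Of the 14 tested members of the MHC class I list, 0 were called, near the 0.649% of all genes called in either direction. A positive log2 fold change was found for 12, beside 49.0% of all genes, and the median was 0.07. HLA-B passed the adjusted p with a log2 fold change of 0.22 ± 0.04 (13.7 ± 0.8 to 16.0 ± 0.2 RPKM, adjusted p = 0.0319), under the fold threshold. HLA-C and B2M, the class I light chain, had 0.19 and 0.18 and did not pass. HLA-E, HLA-F, HLA-G and the immunoproteasome subunit PSMB8 were listed at 0 in all 6 samples, so the class I list is measured in part.

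Genes of innate sensing formed the largest group. CASP1 (chr11:105025397-105035250, minus strand), the protease that matures interleukin-1β, measured 1.26, 1.38 and 1.24 RPKM in DMSO and 3.06, 2.28 and 2.88 RPKM in LEN. Every LEN sample exceeded every DMSO sample, and the log2 fold change of 1.02 ± 0.18 (adjusted p = 0.0179) was the largest among the genes that rose. Its call was lost in 5 of the 6 omissions of a library, where its log2 fold change stayed positive. APOL3 (chr22:36140329-36166177, minus strand), an apolipoprotein L induced by interferon gamma, measured 1.69, 1.38 and 1.33 RPKM in DMSO and 2.80, 2.66 and 2.96 RPKM in LEN (log2 fold change 0.90 ± 0.09, adjusted p = 0.000674). The lowest LEN value of APOL3 was well above the highest DMSO value.

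Receptors that detect microbial products rose more modestly. TLR4, the lipopolysaccharide receptor, went from 3.34 ± 0.14 to 5.13 ± 0.19 RPKM (log2 fold change 0.60 ± 0.05, adjusted p = 0.000264). TMEM173, which encodes STING, the sensor of cyclic dinucleotides, went from 5.39 ± 0.25 to 7.69 ± 0.64 RPKM (log2 fold change 0.50 ± 0.08). IFIH1, which encodes MDA5, the sensor of long double-stranded RNA, went from 2.51 ± 0.14 to 3.30 ± 0.24 RPKM (log2 fold change 0.38 ± 0.07). In the same group, APOBEC3B, a cytidine deaminase, rose by 0.63, LACC1 by 0.58, UBE2L6, the conjugating enzyme of ISG15, by 0.43, OPTN, an autophagy receptor, by 0.39, SLC15A4, an endolysosomal transporter needed for nucleic acid sensing, by 0.38, APOL6 by 0.36 and TRIM38 by 0.33 on the log2 scale. Several of these genes are also used by myeloid cells, whose markers were near the floor: CD14 had 0 to 9 reads and LYZ 1 to 7 reads per sample, and MPO, S100A8, S100A9 and CSF3R were listed at 0. Of the 12 genes of innate sensing and defence, 5 were called in every omission of a library. IFIH1 and UBE2L6 lost their call in 4 of the 6 omissions, TMEM173, OPTN and TRIM38 in 3, and APOBEC3B in 1.

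The interferon-related lists were partly moved. Over all genes tested, 0.587% rose, 49.0% had a positive log2 fold change and the median was 0.00. Of 13 tested interferon gamma effectors, 5 rose (CASP1, APOL3, LCP2, CIITA and APOL6), 12 were positive and the median was 0.30. Of 29 antiviral effectors, 2 rose (UBE2L6 and IFIH1), 23 were positive and the median was 0.16, and that count of 2 became 0 without DMSO replicate 2, DMSO replicate 3, LEN replicate 1 or LEN replicate 3 and 4 by limma-voom. Of 31 interferon receptors and signalling genes, 2 rose (JAK3 and TMEM173), 24 were positive and the median was 0.07. The count was 0 without DMSO replicate 3 or LEN replicate 3 and 1 in each of the other 4 omissions. Classical antiviral genes with large but scattered values, IFI6 (0.75 ± 0.18, adjusted p = 0.0886) and OAS1 (0.67 ± 0.18, adjusted p = 0.122), did not pass. MX1 stood at -0.08 and ISG20 at -0.31, and neither passed.

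**Figure D3:**
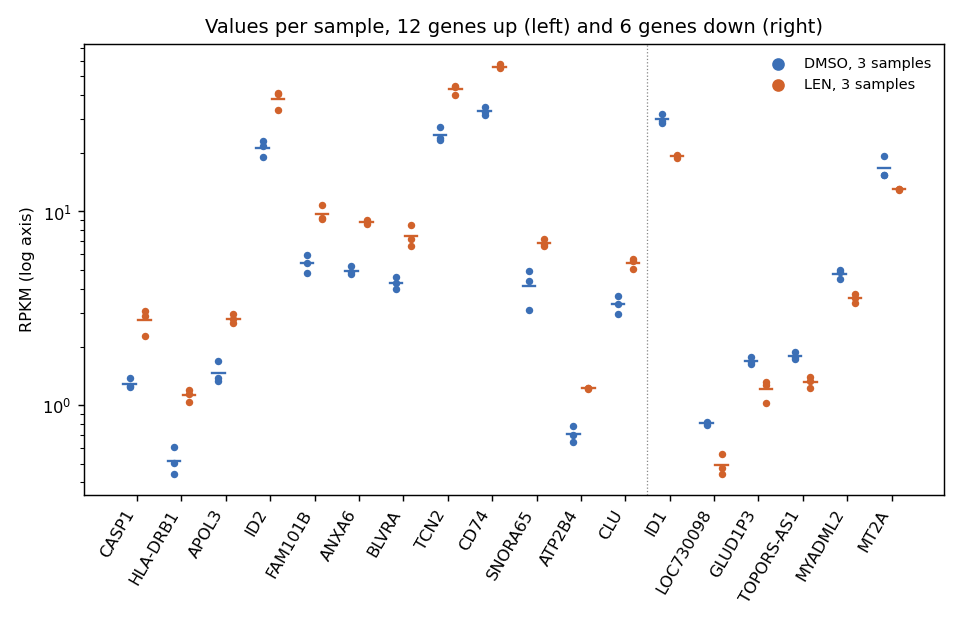
RPKM of each DMSO sample (blue) and each LEN sample (orange) on a log axis, with a bar at the mean of the 3 samples, for the 12 genes with the largest rises (left of the dotted line) and 6 genes that fell (right). In each gene the 3 orange points lie on 1 side of the 3 blue points, and the gap is narrowest for MT2A; SNORD98, which fell to 0 reads, is left out of the log axis.

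Cytokine and lymphocyte receptor signalling contributed 7 genes. IL2RG (chrX:71107404-71112108, minus strand), the common gamma chain of the receptors for interleukins such as IL-2, IL-7 and IL-21, was among the most abundant genes that rose, with 148, 147 and 149 RPKM in DMSO and 197, 194 and 205 RPKM in LEN. Its replicates were tight and the ranges far apart, at a log2 fold change of 0.42 ± 0.04 (adjusted p = 0.000915). JAK3, the kinase that binds this chain, went from 1.03 ± 0.04 to 1.57 ± 0.22 RPKM (0.55 ± 0.11, adjusted p = 0.0374). LCP2, the adaptor SLP-76, rose by 0.64 ± 0.05 (adjusted p = 0.000121), SH2D2A, a T cell adaptor, by 0.52, RASAL3, a Ras GTPase-activating protein of blood cells, by 0.48, PRKCB, protein kinase C beta, by 0.42 and IL10RA by 0.32 on the log2 scale. In the list of B cell receptor and lymphoid signalling genes, PRKCB was the single call among 9 tested, where 0.587% of all genes rose. INPP5D and VAV1 of that list passed the adjusted p at 0.27 and 0.19.

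Receptors coupled to G proteins and ion channels made up another 7. CCR1, a chemokine receptor expressed in myeloma, was abundant and went from 86.8 ± 7.5 to 112 ± 7.9 RPKM (log2 fold change 0.36 ± 0.07, adjusted p = 0.0375). P2RY6, a receptor for UDP, and P2RX4, a channel opened by ATP, rose by 0.43 and 0.40, S1PR2, a sphingosine-1-phosphate receptor, by 0.44, and PTGER4, a prostaglandin E2 receptor, by 0.34 on the log2 scale. RAPGEF3, the cAMP-activated exchange factor EPAC1, rose by 0.59 from 0.477 ± 0.052 RPKM, and TRPM8, a cation channel, by 0.32. Of the 22 tested members of the G protein signalling list, 4 rose (S1PR2, P2RY6, CCR1 and PTGER4), none fell and the median was 0.02, where 0.587% of all genes tested rose. The count of 4 became 1 without LEN replicate 2, 2 without DMSO replicate 2, DMSO replicate 3 or LEN replicate 1, and 2 with a pseudocount of 1. CXCR4, the receptor that homes plasma cells to bone marrow, was measured at 94.0 ± 1.0 and 96.7 ± 3.6 RPKM and was not called (0.04, 95% interval -0.03 to 0.11).

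The inhibitor of DNA binding (ID) proteins are partners of basic helix-loop-helix factors that keep them off DNA, and bone morphogenetic protein (BMP) signals are known to raise their genes. In OPM-1 cells ID2 rose and ID1 fell. ID2 (chr2:8678845-8684461, plus strand) measured 21.7, 23.2 and 19.1 RPKM in DMSO and 40.3, 40.9 and 33.5 RPKM in LEN, all LEN samples above all DMSO samples (0.84 ± 0.11, adjusted p = 0.00424). ID1 (chr20:31605283-31606515, plus strand) measured 29.2, 28.7 and 31.9 RPKM in DMSO and 18.9, 19.7 and 19.3 RPKM in LEN, with no overlap (-0.63 ± 0.08, adjusted p = 0.0029). Both calls held under all 18 alternative settings. ID3, at 0.750 ± 0.052 and 0.734 ± 0.177 RPKM, was not called.

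Of NOG, BAMBI and SMAD7, which inhibit BMP signals, NOG alone was called. NOG, which encodes noggin, a secreted BMP antagonist, rose from 2.32 ± 0.14 to 3.26 ± 0.14 RPKM (0.47 ± 0.08, adjusted p = 0.0128), a call that was lost without DMSO replicate 2, LEN replicate 1 or LEN replicate 3. BAMBI, a decoy receptor, went from 16.0 ± 0.6 to 19.8 ± 1.0 RPKM and passed the adjusted p (0.0044) with a log2 fold change of 0.31, just under the threshold. The ligand BMP6 (0.03), SMAD1 (0.15), SMAD4 (0.04), SMAD5 (-0.05) and SMAD7 (0.05) were not called. Of the 22 tested members of the ID, BMP and TGF-beta list, 1 rose (ID2) and 1 fell (ID1), beside 0.587% and 0.0623% of all genes. Their median was 0.03. NOG is not a member of that list.

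Other transcription factors that rose were MAF, KLF3 and ELF3. MAF, an oncogenic leucine zipper factor of myeloma, went from 5.89 ± 0.43 to 8.0 ± 0.23 RPKM (0.44 ± 0.07, adjusted p = 0.0128). Its deposited gene length of 30828 bases exceeds the 6999 bases of annotated exons, so its RPKM understates its level. KLF3, a repressor of the Krüppel-like family, rose by 0.39 and ELF3, an ETS factor, by 0.33.

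Among cytoskeletal and calcium genes, FAM101B (RFLNB, chr17:439978-445939, minus strand), which encodes a filamin-binding protein, measured 5.98, 4.84 and 5.42 RPKM in DMSO and 10.8, 9.10 and 9.21 RPKM in LEN (0.83 ± 0.10, adjusted p = 0.00176). ANXA6 (chr5:151100706-151157815, minus strand), an annexin that binds membranes when calcium rises, measured 5.22, 4.74 and 4.90 RPKM in DMSO and 8.82, 8.65 and 9.0 RPKM in LEN. The LEN samples of both genes stood clear of the DMSO samples, and ANXA6 had the smallest adjusted p of the comparison (0.82 ± 0.05, adjusted p = 4.6e-05). Of the 7 tested members of the annexin and S100 list ANXA6 was the only call, where 0.587% of all genes rose. ANXA2, at -0.09, and ANXA5, at 0.02, were not called. ATP2B4 (chr1:203626832-203744081, plus strand), a calcium pump of the plasma membrane, measured 0.704, 0.649 and 0.784 RPKM in DMSO and 1.23, 1.21 and 1.23 RPKM in LEN (0.71 ± 0.10, adjusted p = 0.00579).

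WASF1, which drives actin branching, rose by 0.61, JUP, the junction protein plakoglobin, by 0.56, IQGAP3, a scaffold, by 0.43, CCDC88A, the actin-binding protein girdin, by 0.39 and TNS3, a tensin of focal adhesions, by 0.35. The actin cytoskeleton list itself had 1 call (FAM101B) among 37 tested members, where 0.587% of all genes rose. Of the 37, 32 were positive (49.0% of all genes), with a median of 0.07 against 0.00 for all genes. That count was 32 after median-ratio rescaling and 34 after quantile normalization. TMSB4X, the actin-sequestering peptide, stood at 0.26 and did not pass.

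Enzymes and carriers held some of the steepest rises. TCN2 (chr22:30607003-30627271, plus strand), which encodes transcobalamin, the carrier that brings vitamin B12 into cells, measured 27.2, 24.1 and 23.4 RPKM in DMSO and 44.4, 40.1 and 43.9 RPKM in LEN (0.78 ± 0.06, adjusted p = 0.000122). It was the only call among 38 tested genes of the lysosome and vitamin B12 list, whose median was 0.05, where 0.587% of all genes rose. BLVRA (chr7:43758680-43807342, plus strand), biliverdin reductase of the heme breakdown route, measured 4.57, 3.97 and 4.27 RPKM in DMSO and 8.48, 6.66 and 7.24 RPKM in LEN (0.79 ± 0.11, adjusted p = 0.00549). CLU, a secreted chaperone, measured 3.67, 3.35 and 2.97 RPKM in DMSO and 5.67, 5.06 and 5.56 RPKM in LEN (0.69 ± 0.09, adjusted p = 0.00366). In all 3 genes the lowest LEN sample exceeded the highest DMSO sample.

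SQRDL (SQOR), a mitochondrial enzyme that oxidises sulfide, rose by 0.60, METTL7A by 0.52, MVP, the main protein of vault particles, by 0.46 and TPST2, a tyrosine sulfotransferase, by 0.33. Among membrane and vesicle genes, ATP10D, a lipid flippase, rose by 0.55, SDC2, the proteoglycan syndecan-2, by 0.47, DNAJC5B by 0.45, LPCAT2, which makes platelet-activating factor and phospholipids, by 0.42, LAMP5 by 0.41, ARL6IP5 by 0.40, GAS6, a ligand of TAM receptor kinases, by 0.39, CADPS2 by 0.37 and ITM2C by 0.35. ITM2C was the most abundant gene that rose, with 278, 262 and 251 RPKM in DMSO and 341, 326 and 339 RPKM in LEN.

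The group with no role assigned ran from 0.32 to 0.74. Its highest member, SNORA65 (chr9:127448501-127448630, minus strand), is a small nucleolar RNA inside a gene that is transcribed on the same strand, RPL12, and measured 4.92, 4.38 and 3.11 RPKM in DMSO and 7.19, 6.75 and 6.64 RPKM in LEN. These values rest on 9 to 28 reads, the adjusted p was 0.0498 and the call was lost under 12 of 18 settings. The other members were RASSF4, GLIPR2, AUTS2, MORC1, INAFM2, LHFP (LHFPL6) and LOC102723766.

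Of the 7 genes that fell, ID1 was the best measured. MYADML2 (chr17:81939645-81947233, minus strand) measured 4.98, 4.84 and 4.46 RPKM in DMSO and 3.36, 3.73 and 3.60 RPKM in LEN (-0.41 ± 0.07, adjusted p = 0.013). It overlaps PYCR1 on the same strand, so reads of the pair may be mixed. MT2A (chr16:56608584-56609497, plus strand), a metallothionein that binds zinc, measured 15.4, 19.3 and 15.5 RPKM in DMSO and 13.1, 12.9 and 13.1 RPKM in LEN (-0.35 ± 0.07, adjusted p = 0.0491), and its call was lost under 13 of 18 settings. It was the only member called among 15 tested metallothioneins and zinc transporters, where 0.0623% of all genes fell. Near-identical metallothionein genes can share its reads.

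The other 4 were thinly covered. TOPORS-AS1 (SMIM27, chr9:32551144-32568621, plus strand), which overlaps TOPORS and NDUFB6 on the opposite strand, measured 1.73, 1.89 and 1.77 RPKM in DMSO and 1.4, 1.33 and 1.23 RPKM in LEN (-0.42 ± 0.08, adjusted p = 0.0226). GLUD1P3 (chr10:73730562-73737790, plus strand), a pseudogene of glutamate dehydrogenase, measured 1.67, 1.62 and 1.78 RPKM and 1.32, 1.03 and 1.28 RPKM on 23 to 47 reads (-0.46 ± 0.10, adjusted p = 0.0468). LOC730098 measured 0.809, 0.820 and 0.794 RPKM and 0.559, 0.476 and 0.441 RPKM on 18 to 42 reads (-0.62 ± 0.13, adjusted p = 0.0419). In all 3 the LEN range lay below the DMSO range, and each call was lost under 10 or more settings. SNORD98, a small nucleolar RNA within CCAR1, had at most 4 reads in any DMSO sample and 0 in each LEN sample, which is at the floor of 3 reads, and no fold is given.

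The genes that LEN acts through were measured without a call. CRBN stood at 5.94, 5.65 and 6.09 RPKM in DMSO and 6.09, 5.78 and 5.73 RPKM in LEN, a log2 difference of -0.01 (95% interval -0.15 to 0.14, adjusted p = 0.987). IKZF1 stood at 13.46, 13.35 and 13.04 RPKM in DMSO and 15.01, 14.16 and 14.35 RPKM in LEN, a log2 difference of 0.13 (0.03 to 0.23, adjusted p = 0.295). IKZF3 stood at 22.4, 23.0 and 23.3 RPKM in DMSO and 25.5, 25.9 and 25.9 RPKM in LEN, a log2 difference of 0.17 (0.06 to 0.28, adjusted p = 0.185, and 0.0481 by limma-voom on reads). The CRBN samples overlapped, whereas all LEN samples of IKZF1 and IKZF3 were above all DMSO samples without passing the adjusted p of the limma fit on RPKM. Of the 14 tested targets and ligase components, 0 were called, near the 0.649% of all genes, and the median was 0.01. ZNF692, another substrate, came nearest at 0.20 (adjusted p = 0.0569).

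IRF4 and MYC keep myeloma cells alive and lie downstream of IKZF1 and IKZF3. IRF4 stood at 207, 222 and 198 RPKM in DMSO and 207, 213 and 197 RPKM in LEN, overlapping throughout (-0.02, 95% interval -0.16 to 0.11, adjusted p = 0.959). MYC stood at 219, 209 and 195 RPKM in DMSO and 175, 188 and 174 RPKM in LEN, with no overlap, but did not pass (-0.21, 95% interval -0.34 to -0.09, adjusted p = 0.116). At that size it passed the adjusted p with the replicate block (0.031) and by limma-voom on reads (0.0138), and its adjusted p lay between 0.102 and 0.371 in the omissions of a library. The interval of IRF4 leaves out a fall of the size ID1 showed. XBP1, the secretory factor of plasma cells, stood at -0.16 (adjusted p = 0.0973). Of the 20 tested B and plasma cell transcription factors 0 were called, near the 0.649% of all genes.

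**Figure D4:**
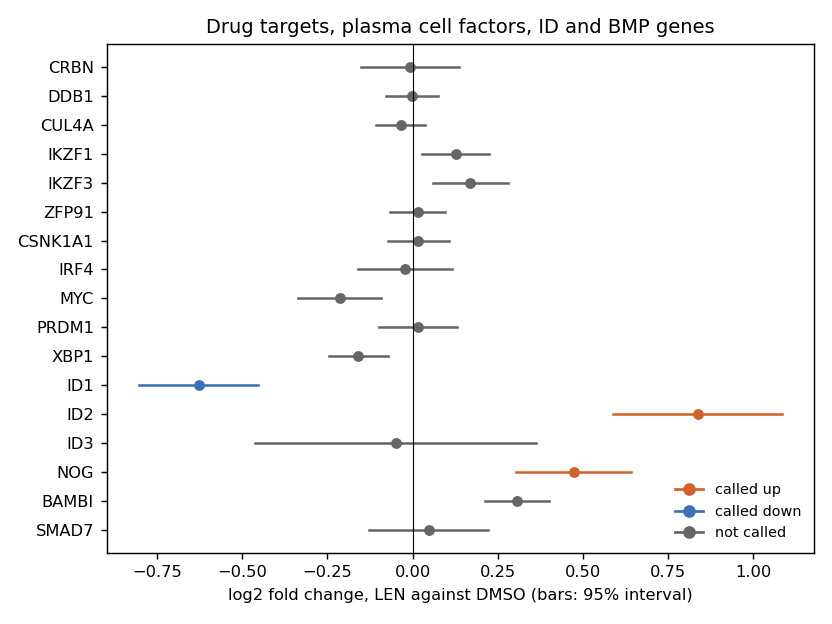
Log2 fold change, LEN against DMSO (x axis), with its 95% interval, for LEN targets, plasma cell factors, and ID and BMP genes (rows); orange is called up, blue called down and grey not called. The intervals of CRBN and IRF4 span 0, those of IKZF1, IKZF3 and MYC do not but miss the adjusted threshold in this fit (MYC and IKZF3 pass it by limma-voom on reads), and ID1 and ID2 lie on opposite sides.

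Among 46 tested DNA replication genes and 49 mitosis genes 0 were called, near the 0.649% of all genes called in either direction, and the medians were 0.01 and 0.00. The lists of the integrated stress response and of ribosome biogenesis, among others, leaned downward by little, where 49.0% of all genes were positive. Of 29 tested genes of ATF4 and the integrated stress response, 6 were positive and the median was -0.08, and of 49 ribosome biogenesis genes 4 were positive and the median was -0.06. These medians were -0.08 and -0.06 after median-ratio rescaling, and -0.08 and -0.05 after quantile normalization. SLC7A11, the cystine transporter, was the ATF4 list member that passed the adjusted p (-0.29 ± 0.06, adjusted p = 0.0372), under the fold threshold.

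Below the fold threshold lay 54 further genes that passed the adjusted p, 44 higher and 10 lower. Interferon signalling genes were among the higher: BST2, which tethers virions to the cell surface, went from 161 ± 7.3 to 199 ± 5.5 RPKM (0.30), IRF1 from 9.25 ± 0.21 to 11.3 ± 0.1 RPKM (0.28) and STAT2 from 8.18 ± 0.11 to 9.95 ± 0.02 RPKM (0.28). Adhesion genes included the integrin subunits ITGB7, at 762 ± 32 and 933 ± 15 RPKM (0.29), ITGB5 (0.22) and ITGAL (0.20), and N-cadherin CDH2 (0.25). GPRC5D, a surface antigen targeted in myeloma therapy, stood at 16.5 ± 0.9 and 19.6 ± 0.8 RPKM (0.25), whereas TNFRSF17 (BCMA), SDC1 (CD138) and CD38 did not pass, at -0.08, -0.10 and 0.11. Lower genes were AQP3, a water and glycerol channel (-0.28), PDK1, a kinase that restrains pyruvate entry into mitochondria (-0.27), BHLHA15, a secretory cell factor (-0.25), CRIM1 (-0.19), ME2 (-0.18) and ACAT1 (-0.17).

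The effect of LEN was then read in the samples that also received AI-10-104, by comparing LEN+AI-10-104 with AI-10-104. There 355 genes rose (3.16% of those tested) and 53 fell (0.471%). Those counts hung on single libraries: the genes up numbered 162, 661 and 186 without AI-10-104 replicate 1, 2 and 3, and 189 without LEN+AI-10-104 replicate 1. Of the 66 genes that rose with LEN alone, 44 were called up there too, 59 passed the adjusted p and 65 were positive, beside 54.4% of all genes. In 64 of them all LEN+AI-10-104 samples lay above all AI-10-104 samples, beside 19.0% of all genes tested. The median over the 66 was 0.43 with AI-10-104 and 0.43 without it, and 45 of them had a smaller log2 fold change with AI-10-104 and 21 a larger one. The 66 were chosen by their effect without AI-10-104, so neither the medians nor this split measures whether AI-10-104 changed the effect of LEN. Both comparisons used the same spread for each gene, so the counts of 44 and 59 are not independent of the first calls.

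The genes of antigen presentation held their size: HLA-DRB1 had 1.13, CD74 0.68 and CIITA 0.50 with AI-10-104, and all 3 were called. CASP1 (1.01), FAM101B (1.08), TMEM173 (0.77), METTL7A (0.76) and SDC2 (0.68) were called as well. Of the 22 that were not called there, 7 also missed the adjusted p: LOC102723766 (-0.01), SNORA65 (0.13), MORC1 (0.17), CADPS2 (0.20), S1PR2 (0.22), WASF1 (0.27) and SH2D2A (0.29). IL2RG (0.31), CCR1 (0.28), PTGER4 (0.30) and KLF3 (0.17) passed the adjusted p there but stayed under the fold threshold. Of the 7 genes that fell, ID1 (-0.47) and MYADML2 (-0.74) fell again, TOPORS-AS1 was at -0.10, and LOC730098 rose by 0.65.

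No gene had a different LEN effect without and with AI-10-104 at the adjusted threshold (limma interaction contrast, smallest adjusted p = 0.155). At an unadjusted p under 0.05 there were 1621 genes, 14.4% of those tested, and limma-voom on reads called 2. Without AI-10-104 replicate 2 the count was 540 and without LEN+AI-10-104 replicate 3 it was 2, so the count of 0 rests on the libraries used. Of the 311 genes that were called up with AI-10-104 and not with LEN alone, 231 had a positive log2 fold change with LEN alone, beside 49.0% of all genes tested. A positive change with an unadjusted p under 0.05 was seen with LEN alone in 92 of the 311, beside 739 of the 11241 genes tested. The spread shared by both comparisons enters that count too.

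**Figure D5:**
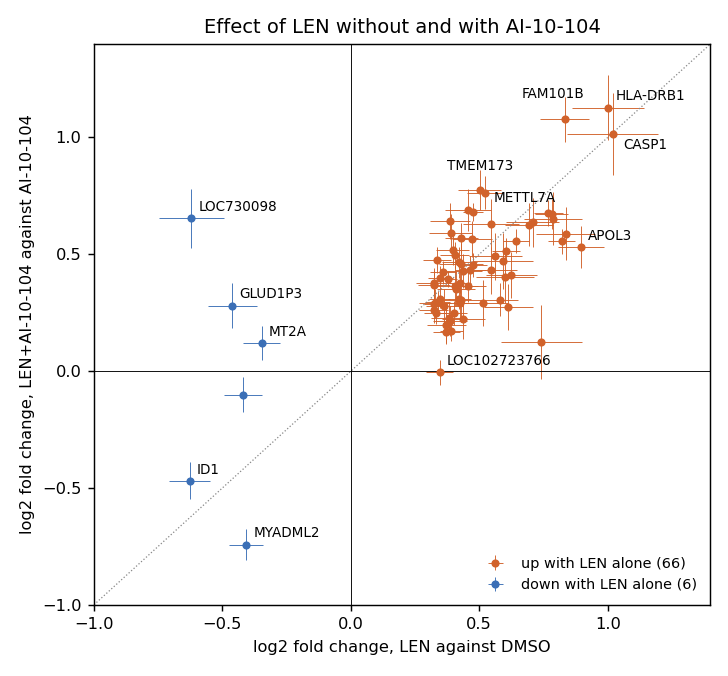
Log2 fold change of the genes called with LEN alone: LEN against DMSO (x axis) and LEN+AI-10-104 against AI-10-104 (y axis), with bars of 1 standard error, orange for the 66 genes up and blue for 6 of the 7 genes down (SNORD98 is outside the axes). The dotted line marks equal effects; 65 orange points lie above 0 on the y axis, while LOC730098, GLUD1P3 and MT2A lie on opposite sides of 0 on the 2 axes.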

How the data were processed

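Poly(A) RNA of OPM-1 cells was sequenced in 12 samples, 3 biological replicates of each condition. Per the submitters' processing notes, STAR and GRCh38 were used for alignment (FastQC, Cuffnorm and DESeq2 are also listed), and the authors deposited RPKM values per gene beside a gene length that they used for the scaling; the annotation, the strand setting of the counting and the software versions are not given in the sources used here. RPKM multiplied by gene length gave whole reads for 100% of the values (tolerance 0.01 reads), 16352548 to 31386210 per sample. Of 38478 genes, 28 carry a date number in place of a symbol and were kept under it. Pairs of replicates differed by more than counting error (chi-square per degree of freedom 2.54 to 7.31 within DMSO and LEN), so the tests rest on the replicates, and the floor of 3 reads speaks only of counting error, reads being no independent molecules where identifiers are missing.

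Genes averaging 0.5 RPKM or more across all samples were tested on log2(RPKM + 0.1), so that fold changes understate those of low genes. limma 3.58.1 (R 4.3.3) fitted 1 mean per condition over all 12 samples with a variance trend, and p-values were adjusted by Benjamini-Hochberg over all genes tested. Genes were called where the adjusted p was 0.05 or less and the log2 fold change 0.32 or more in size. With 3 samples against 3, an exact permutation test of 1 gene cannot go below p = 0.1, so the error comes from the fit across genes. In a bulk sample fewer cells expressing a gene and less RNA per cell cannot be told apart. The fit was also run on simulated reads with the same extra spread for every gene. No effect of single libraries beyond depth was simulated, so that run does not speak to their influence here. The comparison, its members, the gene lists and the motifs were chosen with earlier results of these data known, and the grouping by role was made after the values were seen. Values of every sample are given for the 12 genes up with the largest fold change, the genes down, and CRBN, IKZF1, IKZF3, IRF4 and MYC; IL2RG and ITM2C were added after their values were seen. GENCODE 44 supplied coordinates and exon lengths, found for 23482 symbols as written and for 1238 by an older symbol. Tables were made with Python 3.11.15, pandas 2.3.3 and scipy 1.17.1. Alternatives were the pseudocount, the filter on low values, 2 rescalings, a replicate block, no variance trend, limma-voom on reads, a fit of the compared conditions only, other call rules and leaving out each replicate.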

Additional observations from a re-analysis of the deposited data

Results flagged for a closer look

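LOC730098, GLUD1P3 and MT2A drew attention because all 3 LEN samples lay below all 3 DMSO samples while all 3 LEN+AI-10-104 samples lay above all 3 AI-10-104 samples. The difference between both effects of LEN on the log2 scale was 1.28 for LOC730098 (adjusted p = 0.155), 0.74 for GLUD1P3 (adjusted p = 0.188) and 0.47 for MT2A (adjusted p = 0.277), limma interaction contrast, and none passed. LOC730098 was measured on 18 to 42 reads and GLUD1P3 on 23 to 47 reads per DMSO or LEN sample.

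A further set of 4 results comes from genes whose mean was under 0.5 RPKM and which the report therefore left untested. When every gene with a value above 0 was tested, DDX60L, an interferon-inducible helicase relative, had a log2 fold change of 1.33 (adjusted p = 0.0157) with 22, 26 and 23 reads in DMSO and 79, 92 and 93 reads in LEN. DTX3L, a ubiquitin ligase, had 1.08 (adjusted p = 0.0247) with 54, 55 and 34 reads in DMSO and 94, 118 and 118 reads in LEN. PARP14, an ADP-ribosyltransferase, had 0.89 (adjusted p = 0.0328) with 117, 94 and 78 reads in DMSO and 154, 213 and 214 reads in LEN. In the presence of AI-10-104 the effect of LEN on these 3 interferon-related genes was 0.99, 0.94 and 0.89 on the log2 scale, and DDX60L exceeded every gene called up in the report. TNC, which encodes tenascin-C, had 0.39 (adjusted p = 0.0257) on 5 to 19 reads and 0.08 with AI-10-104. The same setting also called HIST2H3D and LOC105374719 down, on at most 2 reads and 1 read per DMSO or LEN sample. These lie under the floor of 3 reads, and no fold is given.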

How the results depend on the processing

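Leaving out 1 library at a time gave 33 to 61 genes up and 2 to 6 genes down for LEN against DMSO, 162 to 661 up and 21 to 103 down for LEN+AI-10-104 against AI-10-104, and 0 to 540 genes with a different effect of LEN. Genes up and down for LEN against DMSO numbered 52 and 2 with a pseudocount of 1, 48 and 4 with every gene above 0 tested, 99 and 4 by limma-voom on reads, 49 and 4 when only the compared conditions were fitted, 110 and 17 on the adjusted p alone, and 18 and 3 at 1.5-fold or more. For LEN+AI-10-104 against AI-10-104 they were 246 and 32 with a pseudocount of 1, 250 and 90 after quantile normalization, 206 and 37 with the compared conditions only, 1026 and 657 on the adjusted p alone, and 83 and 15 at 1.5-fold or more. The count of genes with a different effect of LEN was 1 without the variance trend and 2 by limma-voom. The cause of these shifts was not tested, except that the last 2 call rules differ in the fold they ask for. With the replicate block, 73 genes rose and 6 fell with LEN alone, 408 and 65 with AI-10-104, and 0 differed. Same-numbered DMSO and LEN samples had correlations of deviations from 0.04 to 0.10 (mean 0.06, 3 pairs). Differently numbered ones had -0.10 to 0.04 (mean -0.03, 6 pairs). The main fit did not pair the samples by number, and whether samples of the same number share an effect was not tested. ANXA6, APOL3, ATP2B4, BLVRA, CD74, CLU, FAM101B, HLA-DRB1, ID2, LCP2, TCN2, TLR4 and ID1 were called under all 18 settings.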

Other observations

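Some genes outside the interferon-related lists had large but scattered differences. MT1G, a metallothionein, stood at 0.48 on the log2 scale without passing (adjusted p = 0.88), in the direction opposite to MT2A. TGIF1, a repressor of TGF-beta signalling, stood at 0.41, just outside the adjusted threshold (adjusted p = 0.0511). TCF4 (0.22, adjusted p = 0.0704) and ETS1 (0.27, adjusted p = 0.0835), factors of B cells, and XBP1 (-0.16, adjusted p = 0.0973) missed the adjusted p. BHLHA15, the secretory cell factor, passed it in the limma fit (-0.25, adjusted p = 0.0419), under the fold threshold. HBB, a globin, was measured at 20.1 ± 0.3 RPKM in DMSO and 20.2 ± 0.9 RPKM in LEN, and the globins HBA1 and HBA2 were listed at 0.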
